A study of Caenorhabditis elegans with 2 samples.

Results

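Chromatin bound by CEBP-2 was examined at the genes of autophagy and of the vacuolar ATPase (V-ATPase) in Caenorhabditis elegans. CEBP-2 is a basic leucine zipper protein of the C/EBP family. The genes were taken by symbol from the Ensembl annotation of protein-coding genes, as every gene whose symbol starts with lgg-, atg-, epg- or vha- together with bec-1, hlh-30, unc-51 and sqst-1. This gave 47 of 19973 protein-coding genes, of which 27 act in autophagy and 20 encode V-ATPase subunits. Whole worms of strain OP331 were used, young adults of 64 h that had been synchronised as starved L1 larvae after bleaching. The strain carries the transgene wgIs331, a cebp-2 gene (C48E7.11) tagged with TY1, EGFP and 3xFLAG, with unc-119(+) as the rescuing marker in an unc-119(ed3) background. The 2 samples are biological replicates of this 1 group, precipitated with an antibody against GFP. Both carry the same transgene in the same background, the labels do not say which cells express the tagged protein, and the files hold peaks alone, so the tissue of origin could not be checked. No control immunoprecipitation was analysed here.

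Autophagy delivers cytoplasmic material to lysosomes in double-membrane vesicles. A kinase complex starts the process, a lipid kinase complex and membrane proteins build the membrane, and a ubiquitin-like conjugation system attaches LGG-1 and LGG-2 to it. The V-ATPase is a proton pump that acidifies lysosomes and other compartments, with a soluble V1 sector that splits ATP and a membrane-bound V0 sector that carries protons. In mammals, TFEB activates many genes of both systems through E-boxes, short sites with the core CACGTG, and HLH-30 is the worm homologue of TFEB. Here E-box means the sequence CACGTG alone, and other forms of the E-box were not sought.

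A peak was given to a gene when its summit fell in a window that starts 2000 bp before the 5' end and stops 500 bp past it. The deposited main list holds 1419 peaks that passed the authors' threshold on the irreproducible discovery rate (IDR), which is low for peaks that rank alike when the data are ranked more than once. The ranked list behind it holds all 112494 ranked peaks, and no file gives read counts, so depth is unknown. The signal of a peak is the caller's value as the authors deposited it, on a scale that no source used here describes, and it serves to order peaks within 1 list. The score runs up to 1000 and rises with reproducibility, and the lowest score in the main list was 830.

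The sequences at 4 summits are shown because 3 of them hold an E-box and the fourth is the strongest peak of the set. Each is the 101 bp centred on the summit, read from the reference assembly of build ce11 (WBcel235) 5' to 3' in the direction of the gene, with CACGTG in capitals. The window of epg-7 is chrX:7334529-7334629 on the plus strand, that of atg-9 is chrV:349180-349280 on the plus strand, that of sqst-1 is chrIV:12033324-12033424 on the plus strand, and that of lgg-1 is chrII:6347914-6348014 on the minus strand. None of the 4 windows overlaps an annotated exon.
epg-7: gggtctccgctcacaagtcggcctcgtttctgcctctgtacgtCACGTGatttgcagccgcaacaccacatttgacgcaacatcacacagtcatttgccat
atg-9: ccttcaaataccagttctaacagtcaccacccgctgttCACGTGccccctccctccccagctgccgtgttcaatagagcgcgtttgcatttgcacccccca
sqst-1: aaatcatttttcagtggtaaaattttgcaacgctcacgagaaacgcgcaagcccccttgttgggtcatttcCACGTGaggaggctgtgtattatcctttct
lgg-1: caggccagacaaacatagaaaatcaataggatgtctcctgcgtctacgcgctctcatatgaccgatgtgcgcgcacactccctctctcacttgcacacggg

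Main-list peaks lay in the windows of 8 of the 47 genes: lgg-1, epg-7, vha-20, unc-51, atg-7, vha-18, sqst-1 and vha-8. This is 17%, against 4.15% of all protein-coding genes (828 of 19973), a background that includes the 47. By system, 5 of 27 autophagy genes (18.5%) and 3 of 20 V-ATPase genes (15%) had such a peak. In the conservative list the count was 3 of 47 (6.38%), namely lgg-1, epg-7 and vha-18, against 3.26% of all genes. No window held a summit of the thresholded list that each replicate has on its own. For replicate 1 the share was 0 of 47 against 0.866% of all genes, and for replicate 2 it was 0 of 47 against 1.31%. At those background shares 0.407 and 0.614 genes would be found among 47. A count of 0 allows a share of up to 6.38% (3 divided by 47), if genes are taken as independent. Some windows share peaks, so this bound is approximate. A lower rate in the own lists was thus not detectable. In a window of only 500 bp upstream, main-list peaks lay at 4 of the 47 genes (lgg-1, epg-7, atg-7 and vha-8), against 1.19% of all genes. No test of these counts was made, since there is 1 group and the genes were chosen with earlier results of these data known.

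**Figure D1:**
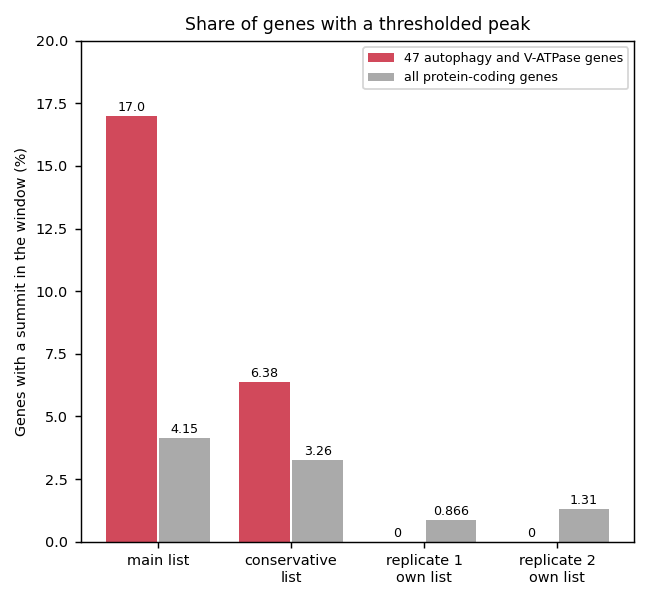
Share of genes (%) with a summit in the window, for the 47 autophagy and V-ATPase genes (red) and all 19973 protein-coding genes (grey), in the 4 thresholded lists. The gap is widest in the main list (17% against 4.15%), and both own lists of the replicates give 0 for the 47 genes.

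The 8 genes carried 9 main-list peaks, 2 of them at atg-7, and most of these peaks were weak for that list. Their signals ran from 55.0 to 83.5, at positions 519 to 1334 of the 1419 peaks by signal. Only those of lgg-1 and epg-7 lay above the main-list median of 77.0. None overlapped a tRNA, snoRNA or snRNA gene, and 6 lay outside protein-coding genes. The member was the gene with the nearest protein-coding 5' end for 6 of the 9 peaks. GC content within 50 bp of these summits ran from 38.6 to 63.4%, around the main-list median of 48.5%.

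Of the initiation genes, epg-7 and unc-51 had main-list peaks. EPG-7 is a scaffold protein of autophagy, and its window held a single ranked peak, at X, 7334444 to 7334713, with the summit 135 bp upstream. Its signal was 81.8 in the ranked list of both replicates, 30.9 in the own ranked list of replicate 1 and 49.7 in that of replicate 2. The peak had a score of 1000 in both joint ranked lists and was in the conservative list. UNC-51 is the ULK-type kinase at the head of the pathway. Its peak lay farther out, 1486 bp upstream at V, 20005836 to 20006105, with a signal of 70.5 and a score of 937. The replicates were unequal there, with 13.3 in replicate 1, at a score of 20, and 52.1 in replicate 2, at a score of 716. In the ranked list behind the conservative list the same peak scored 274. The other initiation genes were lower. The ATG101 homologue gene epg-9 had 43.5 and atg-13, whose product partners UNC-51, had 28.1, with no own peak of replicate 1 at either site.

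None of the 8 nucleation genes had a main-list peak, though epg-4 and atg-9 had strong ranked ones. The peak of epg-4, which encodes the EI24 homologue, had a signal of 71.9 (37.5 in replicate 1, 33.9 in replicate 2) and a score of 698, under the threshold. It lay in a coding exon of ndab-2, 52 bp from the 5' end of that gene and 1363 bp upstream of epg-4. ATG-9 is the membrane-spanning protein of the early autophagosome. The atg-9 summit was 155 bp upstream at V, 349095 to 349364, with a signal of 61.9, a score of 726, and own values of 23.3 and 40.6 in replicates 1 and 2. For bec-1, the Beclin 1 homologue gene of the lipid kinase complex, the strongest peak was 1887 bp upstream with a signal of 43.6 and a score of 153 (22.5 in replicate 1, 16.7 in replicate 2). Near 44 also lay epg-6, a WIPI homologue gene, at 44.9 (score 422), and epg-8, the ATG14 homologue gene, at 43.6 (score 337). The epg-6 peak had own values of 23.5 and 19.1 in replicates 1 and 2, and that of epg-8 had one in replicate 2 alone (30.3). The remaining genes were low: the VMP1 homologue gene epg-3 had 31.5, the gene of the lipid transfer protein ATG-2 had 29.0, and atg-18, another WIPI homologue gene, had no ranked peak in its window.

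Among 11 conjugation genes, lgg-1 and atg-7 had main-list peaks. LGG-1 is the GABARAP-family protein that is attached to autophagosome membranes and is widely used as their marker. Its peak at II, 6347829 to 6348098, with the summit 245 bp upstream, was the strongest of the whole set, at 83.5, and stood at position 606 of the ranked list. The own values were 32.9 in replicate 1 (score 478) and 51.5 in replicate 2 (score 511), and the peak was in the conservative list. A further main-list peak, with a signal of 85.2, lay outside the window, 925 bp downstream of the lgg-1 5' end. That summit was past the 3' end of the gene. ATG-7 is the E1-like enzyme of the conjugation system. Its 2 main-list peaks lay over let-70, the gene of a ubiquitin-conjugating enzyme just upstream on the same strand. The first, at IV, 11081049 to 11081318, lay 129 bp upstream of atg-7 in an untranslated exon of let-70, with a signal of 70.4 and own values of 21.0 and 51.8 in replicates 1 and 2. The second, at IV, 11082102 to 11082371, had a signal of 67.3, a score of 842 and own values of 21.3 and 44.7. It lay 16 bp from the 5' end of let-70 and 1182 bp from that of atg-7.

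The other conjugation genes had no main-list peak. LGG-2, the LC3-family counterpart of LGG-1, is encoded by a gene whose strongest summit was 376 bp upstream, with a signal of 47.5 and a score of 503. The own values were 28.6 in replicate 1 and 20.7 in replicate 2. The atg-5 peak, 15 bp upstream, had 50.6 with an own peak in replicate 2 alone (29.3). The protease genes atg-4.1 and atg-4.2 had signals of 41.7 and 31.3, and the E2-like enzyme genes atg-10 and atg-3 had 34.9 and 30.6. The ATG12 homologue gene lgg-3 had 31.7 and atg-16.2 had 31.3. Its paralogue atg-16.1 had no ranked peak in the window. The conjugation genes thus spread over most of the range of the set, from no peak to its highest value.

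The cargo receptor gene sqst-1 had a main-list peak that was not the strongest of its window. SQST-1 is the p62 homologue, which links ubiquitinated cargo to LGG-1. The listed peak was at IV, 12033239 to 12033508, 908 bp upstream, with a signal of 55.0 and a score of 970. The own values were 30.3 in replicate 1, at a score of 153, and 33.2 in replicate 2, at a score of 416. A stronger ranked peak 1760 bp upstream had a signal of 63.2 but a score of 415, with an own peak in replicate 2 alone (47.6). Another main-list peak lay past the window, 683 bp downstream of the 5' end, with a signal of 66.5. The gene lies in the stretch of IV from 12000001 to 12500000, which held 56 of the 1419 main-list peaks of the whole genome. The cargo adaptor gene epg-2 and the gene of the fusion tether EPG-5 had signals of 30.5 and 29.5.

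The gene of the TFEB homologue itself, hlh-30, had no thresholded peak in its window. Its strongest ranked peak was 236 bp upstream at IV, 4035052 to 4035321, with a signal of 47.1 and a score of 445. The own values were 24.4 in replicate 1 and 28.0 in replicate 2. The window of hlh-30 held no CACGTG.

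Of 9 genes of the V1 sector of the pump, vha-18 and vha-8 had main-list peaks. Both vha-18 and vha-15 encode the H subunit. The vha-18 peak, at V, 8415215 to 8415484, had own scores of 621 in replicate 1 and 510 in replicate 2, with signals of 66.9 in the joint list, 37.0 in replicate 1 and 49.0 in replicate 2. It was in the conservative list with a score of 1000, but its summit was 1868 bp upstream of vha-18, near the edge of the window, and 1264 bp from the 5' end of pos-1. The peak of vha-8, which encodes the E subunit, lay at IV, 6790547 to 6790816, 392 bp upstream, between vha-8 and the divergent gene C17H12.2, whose 5' end was closer at 194 bp. It had a signal of 60.8 and a score of 869, with 31.8 in replicate 1 and 32.3 in replicate 2. Neither of these 2 peaks, then, was nearest to the pump gene.

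The other V1 genes with peaks reached signals of 34.6 to 62.6. The vha-11 peak, in a coding exon of this C subunit gene 124 bp past its 5' end, had 62.6 and a score of 761, the highest score among the strongest peaks of genes with no main-list peak. That of vha-13, which encodes the catalytic A subunit, had 53.9 with an own peak in replicate 2 alone (38.9). Signals of 42.2, 41.6, 40.3 and 34.6 were found for vha-10 (G subunit), vha-15, vha-9 (F subunit) and vha-12 (B subunit). The D subunit gene vha-14 had no ranked peak in the window. A main-list peak of signal 74.3 lay 840 bp downstream of its 5' end.

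Of 11 genes of the V0 sector and its accessory proteins, vha-20 had a main-list peak. VHA-20 is an accessory subunit. The peak was at X, 14165416 to 14165685, 1045 bp upstream, in a coding exon of sym-4, with a signal of 75.1 and a score of 1000. The replicates differed, with 20.3 (score 61) in replicate 1 and 53.2 (score 789) in replicate 2, the highest own score among the 9 main-list peaks. It was not in the conservative list, where the matching ranked peak scored 659. The proteolipid genes vha-2, vha-1 and vha-3 followed with signals of 65.5, 57.6 and 52.7, each in a coding exon of the gene itself, 63, 128 and 369 bp past the 5' end. The vha-2 peak had a score of 738 and own values of 23.0 in replicate 1 and 50.4 in replicate 2. That of vha-1 had a score of 411 with 24.9 and 30.2 in replicates 1 and 2, and that of vha-3 had a score of 643 with an own peak in replicate 2 alone (49.2). Genes vha-1 and vha-2 lie 400 bp apart on the same strand, and vha-11 and vha-3 lie 892 bp apart, so their windows share peaks. The remaining V0 genes were near or under the middle of all genes. Values of 38.8 were found for both vha-17 (e subunit) and vha-16 (d subunit), and 36.1, 35.8 and 30.6 for the a subunit genes vha-6, vha-5 and vha-7. The proteolipid gene vha-4 had 32.2, and the accessory subunit gene vha-19 had 25.95, the lowest peak of the set.

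Taking the strongest ranked peak of each gene, 44 of the 47 genes (93.6%) had one, against 85.2% of all genes. The median signal was 42.9 over these 44 genes, with quartiles of 32.1 and 61.1, against a median of 36.4 over 17019 genes with quartiles of 28.4 and 46.3. Of the 44 genes, 28 lay above the median of all genes. The median number of ranked peaks in a window was 4 for the 47 genes and 3 for all genes. The signal of the strongest peak was not adjusted for this number. The highest value of the set, 83.5, was far under the highest of all genes, 451.2. The latter is above the main-list maximum of 390.5, so it is not from a main-list peak. By sector the medians were 48.1 for V1 and 38.8 for V0, and over all V-ATPase and all autophagy genes they were 41.6 and 43.6. The summit lay within 500 bp of the 5' end in 21 of 44 genes (47.7%), against 41.9% of all genes. It lay outside protein-coding genes in 22 (50%, against 41.4%) and in a coding exon in 13 (29.5%, against 35.6%). The median GC content was 41.6% in both.

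**Figure D2:**
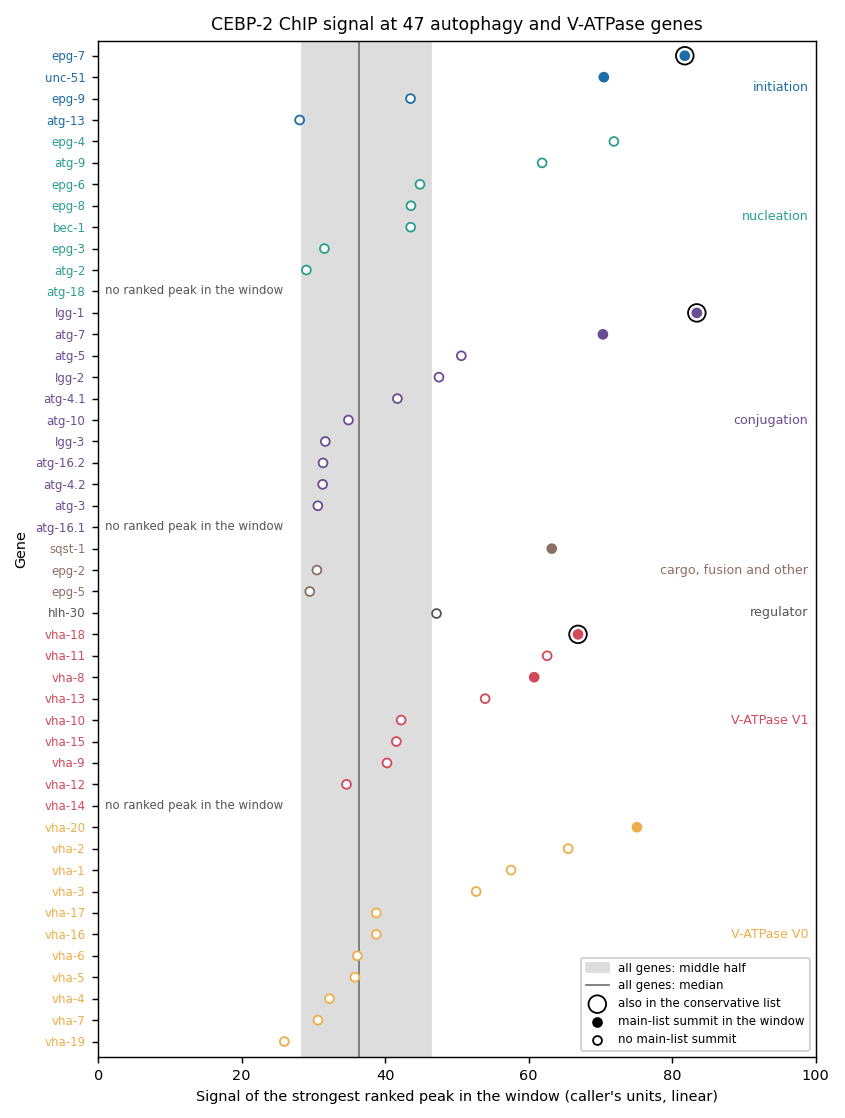
Signal of the strongest ranked peak in the window (x axis, units of the peak caller, linear) for each of the 47 genes, grouped by role. Filled points mark genes with a main-list summit in the window and rings those in the conservative list, while the grey band and line give the quartiles (28.4 and 46.3) and the median (36.4) of all genes. For sqst-1 the point is its strongest peak (63.2), not the listed one (55.0), and 3 genes have no point.

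The own ranked lists covered these sites to different extents. An own ranked peak overlapped the strongest joint peak at 28 of 44 genes in replicate 1 (63.6%, against 60.9% of all genes) and at 40 in replicate 2 (90.9%, against 77.1%). Both had one at 26 genes (59.1%, against 48.8%), and neither at vha-7 and atg-2. Where both had one, the value was higher in replicate 2 at 20 of 26 genes (76.9%, against 79.9% of all genes), with medians of 22.7 in replicate 1 and 31.0 in replicate 2. Over all genes the medians were 18.2 and 26.1. The own lists are not stated to be on 1 scale, so an offset between replicates says nothing of binding. Across the 26 genes Spearman's rho between replicates was 0.145, and across 8298 genes it was 0.305. These describe the lists only, since genes are not replicates and all values of a replicate come from 1 library.

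All 9 main-list peaks had an own ranked peak in both replicates, and none reached the threshold in either. Own scores ran from 20 to 621 in replicate 1 and from 174 to 789 in replicate 2, all under 830. The own signals ran from 13.3 to 37.0 in replicate 1 and from 32.3 to 53.2 in replicate 2, and replicate 2 was higher at all 9. Main-list calls at these genes thus rest on lists made on both replicates together. Those of lgg-1, epg-7 and vha-18 are also in the conservative list. By own score, lgg-1, epg-7 and vha-18 stood at 357 or more in both replicates, whereas unc-51, vha-20 and the first atg-7 peak stood at 148 or less in replicate 1 and at 716 or more in replicate 2.

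**Figure D3:**
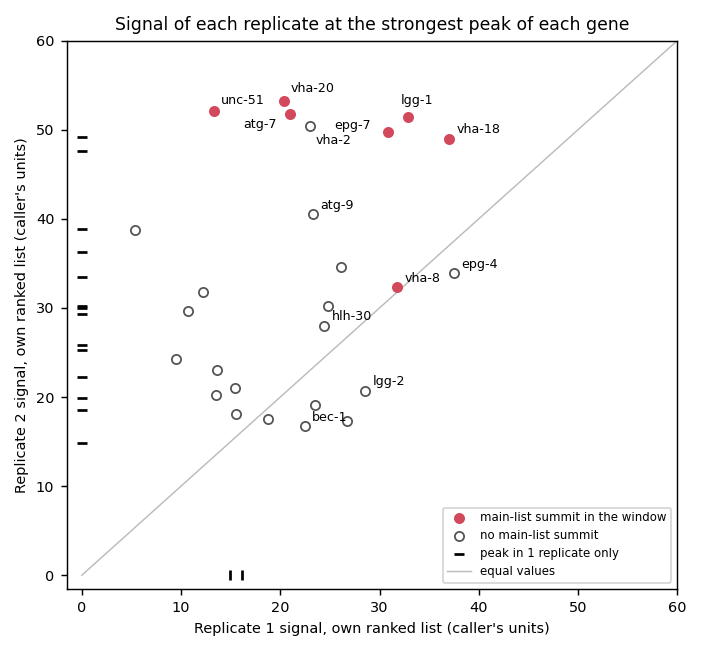
Signal of the own ranked peak of replicate 1 (x axis) and replicate 2 (y axis) over the strongest joint peak of each gene, in units of the peak caller. Of the 26 genes with both values, 20 lie above the line of equal values, and dashes on the axes mark genes with a peak in 1 replicate only, sqst-1 among them.

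E-boxes were few at the summits, and no motif of the C/EBP family itself was sought. CACGTG, which reads the same on both strands, lay within 50 bp of the strongest summit in 2 of 44 genes (4.55%), epg-7 and atg-9, against 2.44% of all genes with a peak. Counting any ranked peak of the window, it was at a summit in 5 of 47 genes (10.6%), with sqst-1, vha-4 and vha-19 added, against 5.94% of all genes. Anywhere in the window of 2501 bp, CACGTG was found in 13 of the 47 genes (27.7%), against 33.8% of all genes. With 100 bp on each side of the strongest summit the count was again 2 genes, against 4.63% of all genes with a peak. These shares lie on both sides of the background and rest on few genes.

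At the main-list peaks themselves, CACGTG was within 50 bp of 2 of 9 summits (22.2%), those of epg-7 and sqst-1, against 22 of 664 main-list peaks (3.31%) that lie in the window of any protein-coding gene. In the sequences printed above, the E-box began 7 bases before the summit in epg-7, 12 before it in atg-9 and 21 after it in sqst-1. With its flanks it read GTCACGTGAT in epg-7, TTCACGTGCC in atg-9 and TCCACGTGAG in sqst-1. The extended form TCACGTGA, also a palindrome, was at the strongest summit of epg-7 and of no other gene in the set, and at that of 15 of 17019 genes (0.0881%). GTCACGTG, sought on both strands and overlapping the first form, was at the strongest summit of epg-7 alone in the set and of 35 genes in all (0.206%). Among the 664 main-list peaks they were at 2 and 3 summits, that of epg-7 included. A match shows that these letters are present in the window and does not show a site in use. At vha-4 and vha-19 the E-box lay at weak peaks, with signals of 29.9 and 5.36. The peaks of lgg-1, unc-51, atg-7, vha-18, vha-20 and vha-8 had no CACGTG within 50 bp.

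**Figure D4:**
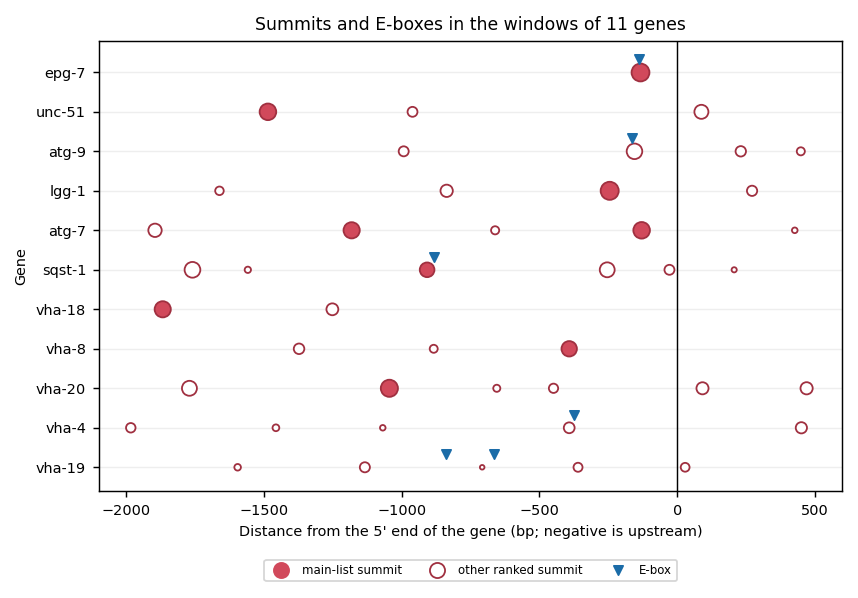
Ranked summits in the windows of the 11 genes with a main-list summit or an E-box at a ranked summit, by distance from the 5' end (bp, negative upstream), with circle area in proportion to signal and blue triangles for E-boxes. The filled main-list summits of epg-7 and sqst-1 have an E-box within 50 bp, and the other 7 filled summits do not.

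Main-list peaks also lay just beyond the windows. In the stretch from 501 to 2500 bp past the 5' end, 8 of the 47 genes (17%) had one, against 3.00% of all protein-coding genes (599 of 19973). These limits were set after the values were seen, and 3 of the 8 genes also had a main-list peak inside the window. The genes were sqst-1, vha-14, lgg-1, epg-9, vha-2, vha-1, vha-9 and vha-8, with signals of 66.5 to 96.4 for the strongest of each gene, at 683 to 2053 bp. The highest was that of epg-9 (96.4, at 1023 bp, score 1000), and vha-2 and vha-1 share 1 peak. For lgg-1, vha-9, vha-8, vha-2 and vha-1 the summit lay past the 3' end of the gene itself. For sqst-1, vha-14 and epg-9 it lay within the gene. On the upstream side, between 2001 and 5000 bp, 1 of the 47 genes (2.13%) had a main-list peak, against 3.94% of all genes. It lay 4966 bp from vha-8, with a signal of 80.6. Just inside, the main-list summit nearest to the upstream edge was that of vha-18. By score, the second atg-7 peak and that of vha-18 were just inside the threshold, at 842 each, while vha-11 (761) and vha-2 (738) were just outside.

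Related genes outside the symbol rule were described in the same way. Of 41 genes of the lysosome, of the TOR kinase pathway and of MYC-like regulators, 6 (14.6%) had a main-list summit in the window, against 4.15% of all genes, and 5 (12.2%) had a conservative one, against 3.26%. The own thresholded lists of replicates 1 and 2 each had a summit at 1 of the 41 genes (2.44%), against 0.866% and 1.31% of all genes. CACGTG lay anywhere in the window in 21 (51.2%), against 33.8% of all genes. At the 47 autophagy and V-ATPase genes the conservative list had 6.38%, each own list 0 and CACGTG in the window 27.7%, and the difference between the lists of genes was not tested. The strongest was at vps-39, a subunit of the complex that tethers vesicles to lysosomes, 527 bp upstream at V, 14038770 to 14039039. Its signal was 100.6 in the joint list, with own values of 50.3 in replicate 1 and 51.2 in replicate 2. The peak of mdl-1, which encodes a MAD-like helix-loop-helix protein, was 74 bp upstream, with 79.1 in the joint list and 36.5 and 49.6 in replicates 1 and 2. That of lmtr-2, a gene of the complex that anchors TOR signalling at the lysosome, lay in its coding exon with a joint signal of 67.7. The gene unc-32 encodes a V0 a subunit under another name, and its peak of signal 69.8 lay 1272 bp upstream, nearer to lin-9. Those of lipl-2 and vps-15 lay 1553 and 1990 bp upstream, nearer to ztf-7 and hmg-12. None of the 6 peaks had CACGTG within 50 bp of its summit.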

How the data were processed

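The files are peak lists that the authors made on build ce11, for both replicates together or for each alone, per the notes on file derivation deposited with each sample. No source used here names the aligner or the peak caller. Each peak carries a deposited signal value of unstated normalization and a deposited score. In the deposited ranked lists a further column gives −log10 of the global IDR, and a score of 830 corresponds to a global IDR of 0.01. The 2 joint ranked lists hold 16 columns of values for parts of the data that were not used.

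Gene 5' ends came from Ensembl release 115 (assembly WBcel235, the same as ce11). The joint ranked list that holds every main-list peak gave the strongest peak per gene by signal. Own peaks of a replicate were those that shared at least 1 bp with the joint peak. Most deposited peaks have a fixed width with the summit at the centre, so summit positions are coarse. Window assignment was tested on simulated data. Python 3.11.15 with pandas 2.3.3, numpy 2.4.6, scipy 1.17.1 and matplotlib 3.10.9 was used. Depth is unknown.

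Every gene with a main-list or conservative-list peak was named with full values. Also named, with fewer values for some, were bec-1, hlh-30, unc-51, sqst-1, lgg-1, lgg-2, the 10 strongest others, genes with an E-box at the strongest summit and the 5 with the weakest or no peak. The remaining genes and the peaks beyond the windows were added after their values were seen. The genes, lists and settings were chosen with earlier results of these data known, so no set was tested. Alternatives used other windows, lists, assignments and E-box settings.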

Additional observations from a re-analysis of the deposited data

How the results depend on the processing

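No paired analysis was possible because there is 1 group. Of 25 alternatives to the counts, 17 stayed within 1.5 times. For the median signal no replicate spread exists on the joint scale, so its alternatives are given as values only. The count of 8 genes with a main-list peak fell to 5 with a window of 1000 bp upstream to 200 bp downstream (all genes 2.36%) and to 4 with 500 bp upstream only (1.19%). It was 3 in the conservative list (all genes 3.26%) and 2 (lgg-1 and epg-7) among main-list peaks above the median signal (all genes 2.34%). It was 0 in the own lists of replicate 1 (all genes 0.866%) and replicate 2 (1.31%). It was 6 when peaks went to the nearest 5' end (all genes 2.74%), which dropped vha-18 and vha-8. It was 9 with the 5' ends of all transcripts (all genes 4.65%), which added epg-9. Without the peaks of IV from 12000001 to 12500000, an alternative chosen after seeing the data, it was 7 (all genes 3.99%), without sqst-1. The median signal was 34.03 (all genes 29.8) and 31.1 (24.5) in the 2 narrower windows, and 23.0 to 29.7 in the own ranked lists (all genes 17.4 to 24.9), whose scale may differ. It was 44.4 (37.5) with all transcripts, 41.6 (32.95) with the nearest 5' end and 42.2 (36.5) in the other joint ranked list. The count of 2 genes with an E-box at the strongest summit became 5 for any ranked peak (all genes 5.94%). It became 4 (epg-7, atg-9, sqst-1 and vha-4) when peaks were ordered by score (all genes 2.4%). It stayed 2 with 100 bp on each side of the summit (all genes 4.63%) and with 25 bp (1.32%). In each own list it was also 2, with vha-4 in place of 1 of the 2 genes. These were epg-7 and vha-4 in replicate 1 (all genes 2.49%) and atg-9 and vha-4 in replicate 2 (2.39%). Unknown depth and 2 replicates limit all of these values.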
